A study of Rattus norvegicus with 36 samples.

Results

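Gene expression in vocal fold (VF) mucosa at 14 days postinjury (14 d PI, 5 arrays) was compared with that in mucosa of age-matched controls (14 d control, 3 arrays). These 8 of the 36 arrays of the series were chosen by their labels, and all 14217 genes with a value were compared. The 14 d PI rats were male Fischer 344 rats whose VF mucosa was stripped on both sides under endoscopic guidance at 120 days of age and harvested at 134 days. The 14 d control rats were male Fischer 344 rats that were experimentally naive and were harvested at the same age. In both groups the microdissected mucosae of both sides of 4 rats were pooled for each array, so the spread between arrays is that between pools, and p-values measure only this spread. The controls had no sham procedure, and effects of the wound and of the procedure around it cannot be told apart. The same comparison was made with separate rats at 3 days (5 PI and 3 control arrays) and at 60 days, for which the labels give 5 PI and 2 control arrays and the study's methods 4 and 3.

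The VF cover is a stratified squamous epithelium on a thin lamina propria, bordered by ciliated and secretory airway epithelium and lying on the thyroarytenoid muscle. After a wound, fibroblasts lay down collagens and the enzymes that fold, trim and cross-link them, while vessels and epithelium are rebuilt. Injured muscle passes through a program in which satellite cells activate myogenic factors, fuse and first make embryonic forms of the contractile proteins. Ciliated cells arise anew from basal cells by building axonemes, the microtubule and dynein shafts of motile cilia. Most tissues also hold a circadian clock, in which Per, Rev-erb and related repressors cycle against the activators Bmal1, Clock and Npas2.

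Values are log2 signals that the authors derived by RMA, a method that summarizes the probes of a gene and brings all arrays to one distribution. A difference of 1 log2 unit is a 2-fold difference, and each difference below is 14 d PI minus 14 d control with its standard error from limma, fitted over all 23 mucosa arrays. A gene was called where its Benjamini-Hochberg adjusted p over all 14217 genes was under 0.05. Of these genes, 436 were called (3.07%), 300 of them higher (2.11%) and 136 lower (0.957%) in 14 d PI mucosa. The median difference was -0.0012 over all genes, 0.86 over the called genes that were higher and -0.71 over those that were lower. The change was over 2-fold in 124 of the genes that were higher and in 24 of those that were lower. In 427 of the 436 called genes the PI and control arrays did not overlap, which was also the case in 1994 of all genes (14%). The count of calls fell to 172 when 14 d control replicate 3 was left out, to 211 and 224 without 14 d control replicates 1 and 2, and to 259 without 14 d PI replicate 5. It was 733 without 60 d PI replicate 4, an array that enters through the shared estimate of the spread. Of the called genes named by the rule used here, 77 of 127 remained called without each of the 8 arrays, and for the other 50 the arrays concerned are given.

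The tissue markers were those of a mixed sample. Krt5, the keratin of basal squamous cells, was 13.15 ± 0.14 in 14 d PI and 13.19 ± 0.13 in 14 d control mucosa (mean ± SD of the log2 signal, n = 5 and 3). Ckm, the creatine kinase of muscle, was 14.44 ± 0.01 in 14 d PI and 14.39 ± 0.04 in 14 d control mucosa, and the club cell secretoglobin Scgb1a1 was 14.52 ± 0.03 in 14 d PI and 14.55 ± 0.05 in 14 d control mucosa. RNA of squamous epithelium, secretory epithelium and skeletal muscle was thus present in both groups. The fat droplet protein Plin1 was 4.49 ± 0.09 in 14 d PI and 4.34 ± 0.02 in 14 d control mucosa and thyroglobulin, Tg, was 5.42 ± 0.09 in 14 d PI and 5.51 ± 0.17 in 14 d control mucosa, both in the lower part of an array scale that ran from 2.72 to 14.74. The 4 cartilage markers differed among themselves. The collagen Col2a1 was 5.45 ± 0.18 in 14 d PI and 5.44 ± 0.19 in 14 d control mucosa, whereas aggrecan, Acan, was 7.58 ± 0.60 in 14 d PI and 8.17 ± 0.55 in 14 d control mucosa, Cnmd was 7.45 ± 1.16 in 14 d PI and 8.37 ± 1.17 in 14 d control mucosa and Matn1 was 6.55 ± 0.24 in 14 d PI and 6.996 ± 0.22 in 14 d control mucosa. None of the 4 was called, and 3 of the 17 genes of the cartilage list had a difference above 0 (median -0.44). The part of cartilage in the matrix results was not tested. In such tissue, fewer cells of a type and less RNA per cell cannot be told apart. Across genes, the deviations of 14 d control replicate 3 from its group mean correlated with those of 3 d PI replicate 5 (Pearson's r 0.605) and 60 d PI replicate 4 (0.451), a description over genes that are not independent.

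The called genes were read against 53 gene lists. These were chosen with earlier results of these data known, so their shares beside those of all genes describe the lists and test nothing. Matched by gene symbol, the lists took up 151 of the 436 calls, and the other 285 called genes matched no list. Calls in 21 lists were all higher, in 14 all lower and in 7 mixed, and 11 lists held no call. Fibrillar collagens, motile cilia, ADAM and ADAMTS proteases, basement membrane and the muscle regeneration genes had the highest shares of calls that were higher. The circadian Per, Rev-erb and PAR-bZIP genes had the highest share of calls that were lower.

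**Figure D1:**
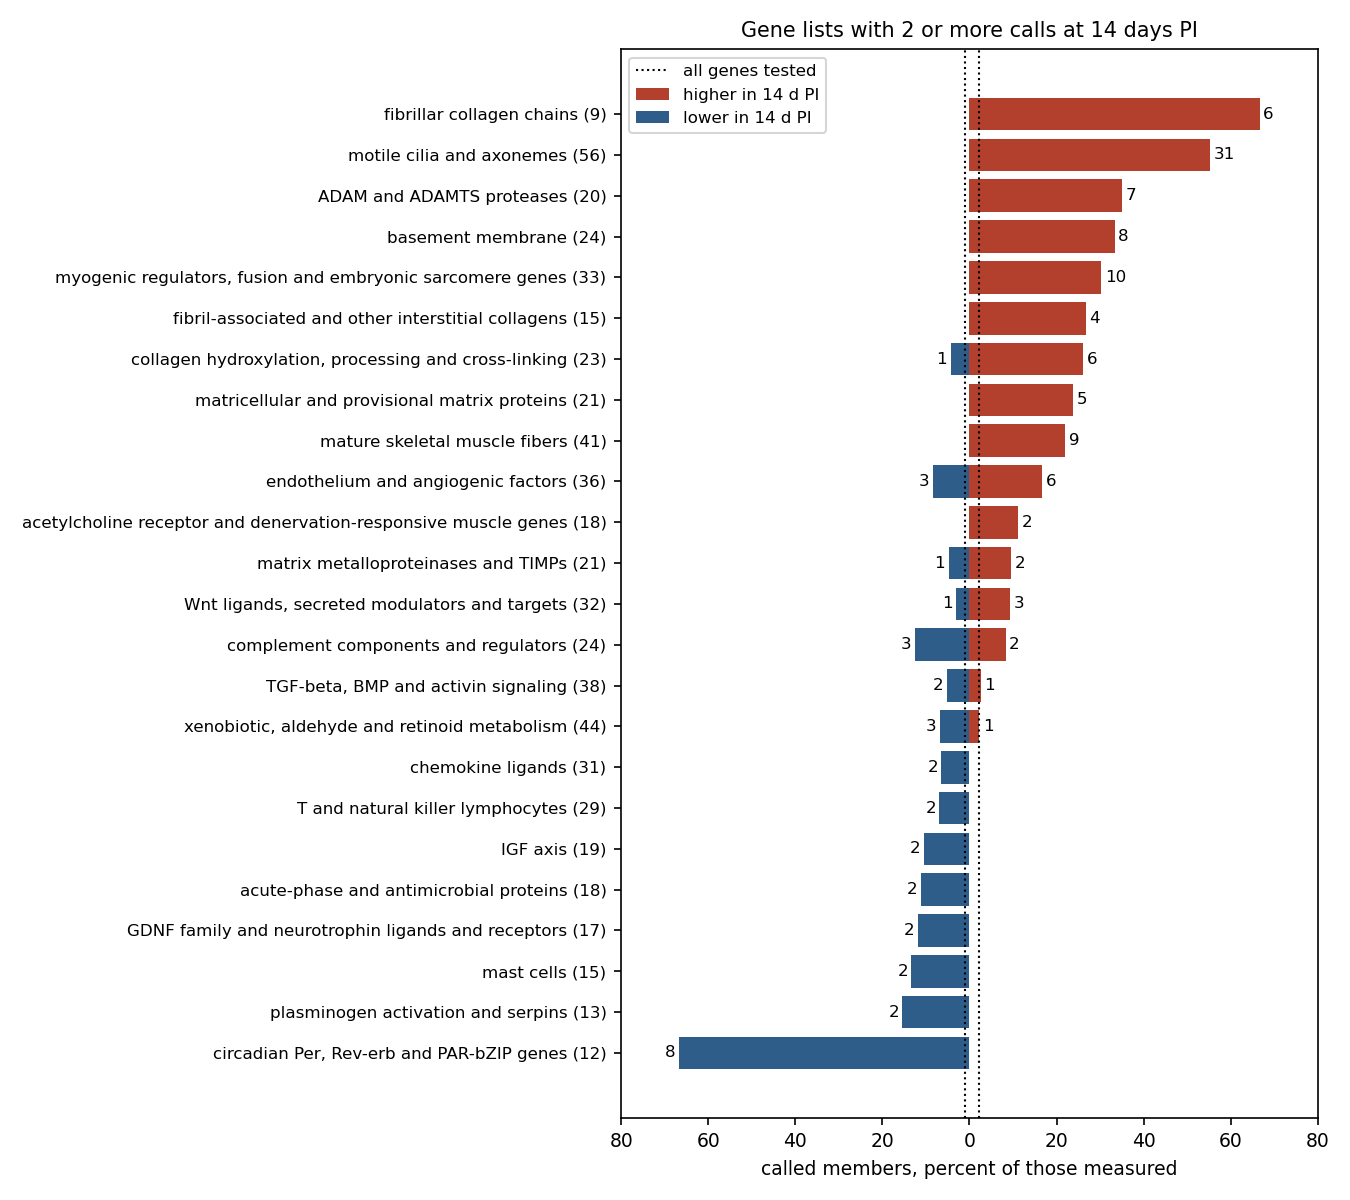
Called genes in each gene list with 2 or more calls at 14 days. The horizontal axis gives called members as a percent of the members measured (number in parentheses), higher in 14 d PI to the right and lower to the left, the figures at the bars count the genes, and dotted lines mark the shares over all genes (2.11% higher, 0.957% lower).

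Fibrillar collagens stood at the head of the matrix genes. Of 9 chains measured, 6 were higher in 14 d PI mucosa (Col1a1, Col1a2, Col3a1, Col5a1, Col5a2 and Col5a3) and none was lower, with a list median of 0.66, and these 6 calls were kept without any of the 8 arrays. Col5a2, a chain of the collagen that nucleates fibrils, read 12.41, 12.56, 12.71, 12.45 and 12.59 in the 14 d PI arrays, against 11.21, 11.22 and 11.31 in the 14 d control arrays. Every PI array lay above every control array, and the difference was 1.30 ± 0.14 (adjusted p = 1.4e-05). Col1a1, a chain of the main collagen of scars, read 12.72, 12.52, 13.15, 12.99 and 13.10 in the 14 d PI arrays, against 11.94, 11.56 and 11.38 in the 14 d control arrays. These groups were also separate, by 1.27 ± 0.15 (adjusted p = 6.46e-05), and the spread within each was larger than for Col5a2. Col3a1, the collagen of early granulation tissue, rose less, by 0.49 ± 0.08 (adjusted p = 0.000741), on a signal of 14.15 ± 0.04 in 14 d PI and 13.65 ± 0.07 in 14 d control mucosa, and Col5a1 and Col5a3 by 1.07 ± 0.12 and 0.96 ± 0.14 (adjusted p = 3.7e-05 and 0.000486). Col3a1 read close to the top of the scale (14.74), where a rise may not show in full. At 3 days, 8 of the 9 chains had been higher, and for 4 of them the injury effect was smaller at 14 days by a test of the difference between the effects.

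Among 15 other interstitial collagens, 4 were higher and none lower (median 0.06). They were the 3 chains of collagen VI, which forms beaded microfilaments around cells, with Col6a1 (0.65 ± 0.12, adjusted p = 0.00331), Col6a2 (0.62 ± 0.12, adjusted p = 0.00412) and Col6a3 (0.92 ± 0.13, adjusted p = 0.00033), and the fibril-associated Col14a1 (0.64 ± 0.13, adjusted p = 0.00735). Col6a2 lost its call without control replicate 3 (adjusted p = 0.0521). Col14a1 lost its call without control replicate 3 (adjusted p = 0.0645). Other probe sets of Col6a3, Col6a2 and Col14a1 gave smaller differences that were not called, at 0.16 ± 0.25, 0.20 ± 0.15 and 0.27 ± 0.15 (adjusted p = 0.949, 0.765 and 0.558). With the mean of the probe sets of each gene, 1 of the 15 genes was called.

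Of 23 genes that hydroxylate, process or cross-link collagen, 6 were higher and 1 was lower (median 0.09). Lox, lysyl oxidase, which starts the covalent cross-links, read 11.10, 11.15, 11.47, 11.02 and 11.42 in the 14 d PI arrays, against 10.17, 9.996 and 10.04 in the 14 d control arrays. The groups were separate and differed by 1.16 ± 0.18 (adjusted p = 0.000689). Plod2, the lysyl hydroxylase of the collagen ends, differed by 0.78 ± 0.16 (adjusted p = 0.00885), and Sparc, a collagen-binding protein of the matrix, by 0.68 ± 0.13 (adjusted p = 0.00377). Bmp1, the proteinase that removes the procollagen C-propeptide, was higher by 0.51 ± 0.10 (adjusted p = 0.00593). Bmp1 lost its call without control replicate 3 (adjusted p = 0.0563). The member that was lower was PCOLCE2, an enhancer of that same proteinase, which read 9.91, 9.30, 9.97, 10.04 and 9.29 in the 14 d PI arrays, against 10.85, 10.71 and 10.68 in the 14 d control arrays and differed by -1.04 ± 0.18 (adjusted p = 0.00242). Bmp1 and PCOLCE2 thus changed in opposite directions. The chaperones Serpinh1 and Fkbp10, named after their values were seen, were called at Serpinh1 (0.60 ± 0.15, adjusted p = 0.0287) and Fkbp10 (0.36 ± 0.09, adjusted p = 0.0223). Serpinh1 lost its call without PI replicates 1, 3, 4 or 5 or control replicates 2 or 3 (adjusted p = 0.0551 to 0.241). Fkbp10 lost its call without PI replicates 3 or 5 or control replicates 1, 2 or 3 (adjusted p = 0.0509 to 0.156).

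Of 24 basement membrane genes, 8 were higher and none lower (median 0.29). Nid1, nidogen, which links laminin to collagen IV, read 12.39, 12.30, 12.46, 12.53 and 12.34 in the 14 d PI arrays, against 11.63, 11.70 and 11.80 in the 14 d control arrays. The difference was 0.70 ± 0.11 (adjusted p = 0.00139), while a second probe set of Nid1 gave -0.03 ± 0.17 (adjusted p = 0.992). Nid2 differed by 0.82 ± 0.16 (adjusted p = 0.00457), the laminin chain Lamb1 by 0.55 ± 0.10 (adjusted p = 0.00336) and the collagen IV chain Col4a2 by 0.93 ± 0.17 (adjusted p = 0.00339). Nid2 lost its call without control replicate 3 (adjusted p = 0.0542). Col4a5, the X-linked collagen IV chain of epithelial basement membranes, was 12.12, 12.06, 12.33, 12.08 and 12.11 in the 14 d PI arrays, against 11.44, 11.46 and 11.43 in the 14 d control arrays, a difference of 0.70 ± 0.12 (adjusted p = 0.0027). Col4a1, Lama4 and Lamc1 were the other calls, with differences of 0.72, 0.44 and 0.52. They are named after their values were seen. Lama4 lost its call without PI replicates 1, 2, 3 or 4 or control replicates 1, 2 or 3 (adjusted p = 0.0581 to 0.204). Lamc1 lost its call without PI replicates 2 or 4 or control replicates 1, 2 or 3 (adjusted p = 0.0653 to 0.147). Pxdn, peroxidasin, which cross-links collagen IV, is in no list and read 10.75, 10.87, 10.91, 10.95 and 10.88 in the 14 d PI arrays, against 9.40, 9.41 and 9.44 in the 14 d control arrays, a difference of 1.45 ± 0.14 (adjusted p = 4.47e-06).

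**Figure D2:**
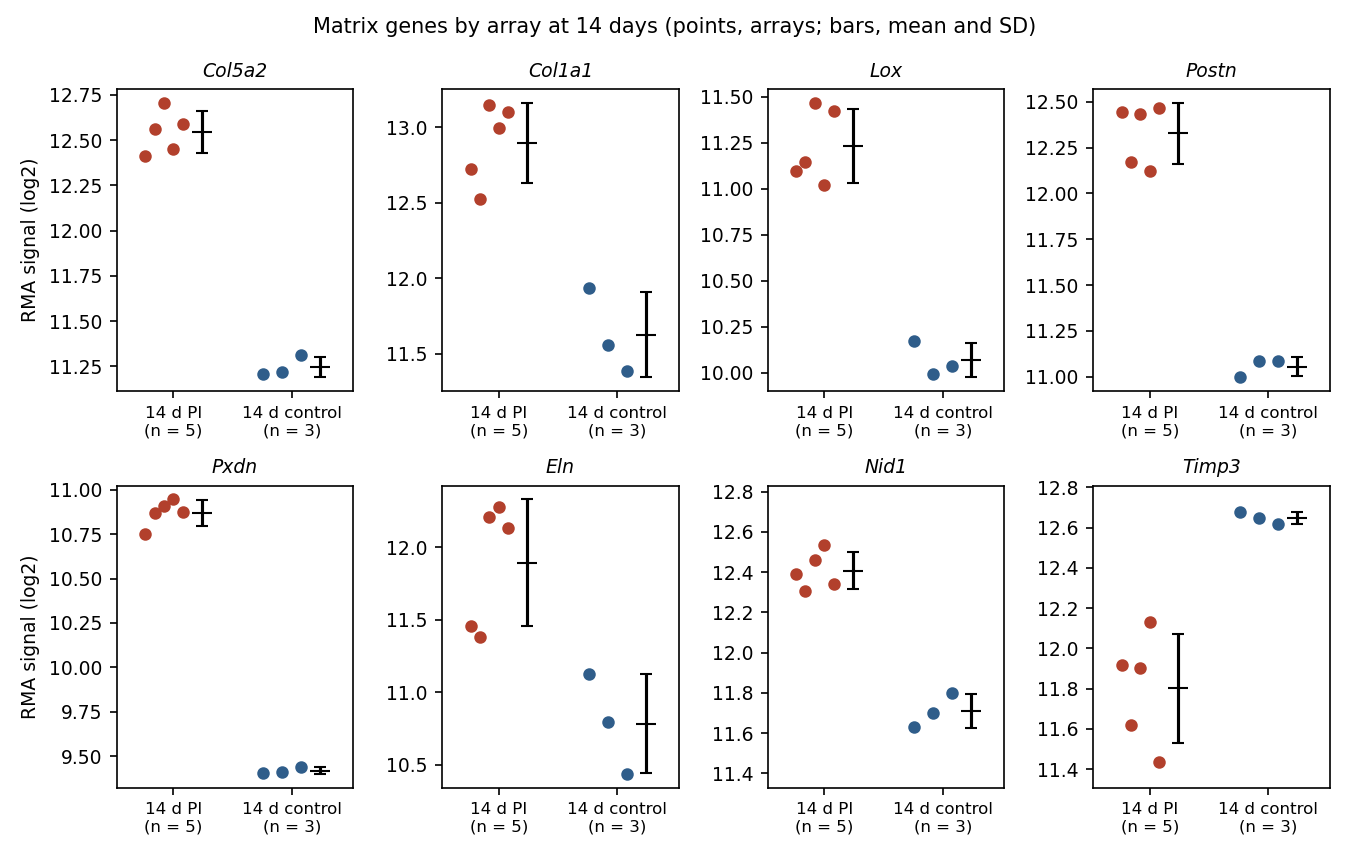
Matrix genes in the 5 arrays of 14 d PI (left, red) and the 3 of 14 d control (right, blue), as log2 RMA signal. Points are arrays and bars the mean with SD, and each panel has its own axis, which does not start at 0. Timp3 was lower in 14 d PI and the other 7 genes were higher, with no overlap of the groups in any panel.

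Matricellular proteins, which signal from the matrix rather than bear load, gave 5 higher genes of 21 (median 0.22) and none lower. Postn, periostin, read 12.45, 12.17, 12.43, 12.12 and 12.47 in the 14 d PI arrays, against 10.997, 11.09 and 11.09 in the 14 d control arrays. Its difference was 1.27 ± 0.13 (adjusted p = 8.47e-06). Thbs2, thrombospondin 2, was higher by 1.21 ± 0.16 (adjusted p = 0.000135), Ccn5 by 0.88 ± 0.18 (adjusted p = 0.00911) and Cthrc1, a secreted collagen triple helix repeat protein, by 1.25 ± 0.26 (adjusted p = 0.00986). Cthrc1 lost its call without control replicate 3 (adjusted p = 0.0809). Tenascin C and fibronectin, proteins of the provisional matrix, were not called. Tnc differed by 0.91 ± 0.25 (adjusted p = 0.0538) and Fn1 by -0.36 ± 0.23 (adjusted p = 0.615), and both are named after their values were seen.

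Elastin was the only called member of 17 elastic fiber genes, whose median was 0.00. Eln read 11.46, 11.38, 12.21, 12.28 and 12.13 in the 14 d PI arrays, against 11.12, 10.79 and 10.44 in the 14 d control arrays. The lowest PI array lay above the highest control array by less than the range within either group, and the difference was 1.11 ± 0.19 (adjusted p = 0.00176). A second, dimmer probe set of Eln gave 0.69 ± 0.33 (adjusted p = 0.473). Aspn, asporin, was the only call among 12 small leucine-rich proteoglycans (median 0.02), at 1.04 ± 0.22 (adjusted p = 0.00979). Aspn lost its call without control replicate 3 (adjusted p = 0.0582). Of 16 genes of hyaluronan synthesis, binding and turnover, none was called and the median was -0.07. Every PI array lay below every control array in 5 of the 16 and above in 2, against 6.08% and 7.95% of all genes. With the 14-day arrays alone 5 of the 16 were called, when 910 of all 14217 genes were. With pooled controls 2 were called, and with the filter on dim genes none. The member of highest signal, the receptor Cd44, differed by -0.32 ± 0.16 (adjusted p = 0.416).

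Matrix proteases moved by family. Of 20 ADAM and ADAMTS proteases, 7 were higher and none lower (median 0.12). Adamts12 read 7.74, 7.91, 8.07, 7.79 and 7.77 in the 14 d PI arrays, against 6.58, 6.74 and 6.65 in the 14 d control arrays, a difference of 1.20 ± 0.17 (adjusted p = 0.000313). Adamts15, a proteoglycan-cleaving member, differed by 0.83 ± 0.13 (adjusted p = 0.000977) and the membrane protease Adam8 by 0.76 ± 0.14 (adjusted p = 0.00293), although a second, dimmer probe set of Adam8 gave 0.02 ± 0.09 (adjusted p = 0.988). The aggrecanases Adamts4 and Adamts5 differed by 0.87 ± 0.20 and 0.60 ± 0.15 (adjusted p = 0.0165 and 0.0242). Adamts4 lost its call without control replicates 2 or 3 (adjusted p = 0.0617 to 0.129). Adamts5 lost its call without PI replicates 4 or 5 or control replicates 1, 2 or 3 (adjusted p = 0.0509 to 0.175). Adamts8 and Adamts9, named after their values were seen, were called too, at 0.58 and 0.60. Adamts8 lost its call without PI replicates 3 or 5 or control replicates 1, 2 or 3 (adjusted p = 0.0584 to 0.196). Adamts9 lost its call without PI replicates 2, 3, 4 or 5 or control replicates 1, 2 or 3 (adjusted p = 0.0511 to 0.143).

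Among 21 matrix metalloproteinases and their inhibitors, Mmp11 (0.86 ± 0.18, adjusted p = 0.00867) and the membrane-anchored Mmp17 (0.50 ± 0.11, adjusted p = 0.0107) were higher. Mmp11 lost its call without control replicates 2 or 3 (adjusted p = 0.0512 to 0.0515). Mmp17 lost its call without control replicate 3 (adjusted p = 0.114). The inhibitor of metalloproteinases Timp3, which stays bound to the matrix and also restrains ADAMTS enzymes, was lower. It read 11.92, 11.62, 11.90, 12.13 and 11.44 in the 14 d PI arrays, against 12.68, 12.65 and 12.62 in the 14 d control arrays, and the groups were separate by -0.85 ± 0.14 (adjusted p = 0.00167), with 1 of its other probe sets called (-1.21 ± 0.30, adjusted p = 0.0367) and the others not, at -0.74 ± 0.20 (adjusted p = 0.0615) and -1.37 ± 0.39 (adjusted p = 0.078). Of 13 genes of plasminogen activation and related serpins, 2 were lower and none higher (median 0.02). Neither of them is a plasminogen activator. Serpina3n, an acute-phase serpin, was 8.95, 8.16, 9.06, 8.58 and 8.09 in the 14 d PI arrays, against 10.75, 10.26 and 9.95 in the 14 d control arrays, a difference of -1.75 ± 0.30 (adjusted p = 0.00175), and the complement C1 inhibitor Serping1 differed by -0.64 ± 0.15 (adjusted p = 0.023). Serping1 lost its call without PI replicates 2 or 5 or control replicates 1, 2 or 3 (adjusted p = 0.0586 to 0.0983).

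Signaling genes changed in both directions, against 3.07% of all genes called. Of 38 genes of TGF-beta, BMP and activin signaling, the BMP ligands Bmp6 (-0.63 ± 0.14, adjusted p = 0.0124) and Bmp7 (-0.38 ± 0.09, adjusted p = 0.0264) were lower and the activin antagonist Fst, follistatin (0.47 ± 0.11, adjusted p = 0.0263), was higher (median -0.10). Bmp6 lost its call without control replicate 1 (adjusted p = 0.107). Another probe set of Bmp6 was called at -0.81 ± 0.18 (adjusted p = 0.0203). Dimmer ones were not, at -0.07 ± 0.06 and -0.03 ± 0.09 (adjusted p = 0.838 and 0.974). Bmp7 lost its call without PI replicates 1, 2 or 5 or control replicates 1 or 2 (adjusted p = 0.0536 to 0.168). Fst lost its call without PI replicates 1 or 3 or control replicates 1, 2 or 3 (adjusted p = 0.0551 to 0.116). Of 23 contractile genes of myofibroblasts and smooth muscle, only the smooth muscle leiomodin Lmod1 was called, and it was lower (-0.73 ± 0.18, adjusted p = 0.0247). Lmod1 lost its call without PI replicates 1, 2 or 5 or control replicates 1, 2 or 3 (adjusted p = 0.0544 to 0.156). Acta2, smooth muscle actin, and Tagln, transgelin, which mark myofibroblasts, differed by 0.30 ± 0.18 and 0.11 ± 0.18 (adjusted p = 0.569 and 0.925; named after their values were seen).

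Among 32 Wnt genes, 3 were higher and 1 lower (median -0.03). Sfrp4, a secreted Wnt modulator, read 8.77, 8.12, 8.999, 8.03 and 8.70 in the 14 d PI arrays, against 7.200, 7.19 and 7.29 in the 14 d control arrays, a difference of 1.30 ± 0.21 (adjusted p = 0.00123), although a second probe set at a mean of 5.32 in 14 d PI and 5.38 in 14 d control mucosa gave -0.06 ± 0.08. The ligand Wnt2 was higher by 0.46 ± 0.08 (adjusted p = 0.00369). The receptor Lgr5 (0.86 ± 0.23, adjusted p = 0.048) was higher and the modulator Sfrp5 (-0.79 ± 0.18, adjusted p = 0.0153) lower. Lgr5 lost its call without PI replicates 3, 4 or 5 or control replicates 1, 2 or 3 (adjusted p = 0.0776 to 0.195). Sfrp5 lost its call without control replicates 1 or 3 (adjusted p = 0.0688 to 0.124). In the IGF axis (19 genes, median -0.06) the binding protein Igfbp3 (-0.80 ± 0.17, adjusted p = 0.0111) and the protease Pappa2 (-0.46 ± 0.11, adjusted p = 0.0237) were lower, although another probe set of Pappa2 gave -0.09 ± 0.07 (adjusted p = 0.78). Igfbp3 lost its call without control replicates 1 or 2 (adjusted p = 0.0698 to 0.0933). Pappa2 lost its call without PI replicates 1, 2 or 5 or control replicates 1, 2 or 3 (adjusted p = 0.0608 to 0.152). Of 38 ligands and receptors of the EGF, FGF, HGF and PDGF families, only Fgfbp1 was called.

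Among the called genes, the 4 largest differences were those of muscle genes. Of 33 genes of myogenic regulation, fusion and the embryonic sarcomere, 10 were higher and none lower (median 0.20). Myh3, embryonic myosin, read 10.69, 10.27, 9.73, 9.94 and 10.000 in the 14 d PI arrays, against 6.19, 6.51 and 6.15 in the 14 d control arrays. All PI arrays lay far above the control arrays, and the difference of 3.84 ± 0.22 amounted to 14.3-fold (adjusted p = 1.08e-09). Myh8, perinatal myosin, read 12.43, 12.29, 11.70, 12.55 and 12.004 in the 14 d PI arrays, against 10.02, 10.20 and 9.94 in the 14 d control arrays, a difference of 2.14 ± 0.25 (adjusted p = 3.7e-05). Myog, myogenin, the factor of terminal differentiation, read 10.15, 9.61, 9.33, 9.63 and 9.68 in the 14 d PI arrays, against 7.90, 8.02 and 7.79 in the 14 d control arrays. It differed by 1.78 ± 0.23 (adjusted p = 0.000113), the earlier factor Myod1 by 1.54 ± 0.22 (adjusted p = 0.00033) and Atp1b4, a muscle member of the Na,K-ATPase beta family, by 2.73 ± 0.31 (adjusted p = 3.7e-05). The other calls were Mymk, myomaker, the fusion protein (1.16), Myl4 (1.14), the cell cycle inhibitor Cdkn1c (0.74), Heyl (0.43) and Ankrd1 (1.17), of which all but Ankrd1 are named after their values were seen. Myl4 lost its call without PI replicates 1, 4 or 5 or control replicates 1, 2 or 3 (adjusted p = 0.0504 to 0.148). Cdkn1c lost its call without control replicates 1 or 3 (adjusted p = 0.051 to 0.0534). Heyl lost its call without PI replicates 1, 2, 4 or 5 or control replicates 1, 2 or 3 (adjusted p = 0.051 to 0.203). Ankrd1 lost its call without PI replicates 1, 2 or 4 or control replicates 1 or 2 (adjusted p = 0.0511 to 0.238).

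Of 41 genes of mature muscle fibers, 9 were higher and none lower, while the median was -0.01. Several of the members that were higher are genes of slow fibers, but others of that kind were not called. Among these, the slow light chain Myl3 differed by -0.80 ± 0.26, slow tropomyosin, Tpm3, by -0.11 ± 0.23 and slow myosin-binding protein C, Mybpc1, by -0.04 ± 0.27 (adjusted p = 0.108, 0.945 and 0.986; named after their values were seen). Tnni1, slow troponin I, read 10.39, 10.61, 10.24, 10.34 and 10.47 in the 14 d PI arrays, against 7.68, 7.73 and 7.44 in the 14 d control arrays, a difference of 2.79 ± 0.27 (adjusted p = 5.12e-06). Tnnc1, the troponin C of slow and cardiac muscle, read 9.76, 9.06, 9.09, 9.09 and 9.77 in the 14 d PI arrays, against 6.96, 6.83 and 6.34 in the 14 d control arrays, a difference of 2.64 ± 0.32 (adjusted p = 6.48e-05). In both genes the groups were far apart. Myh7, slow myosin, read 5.39, 6.14, 5.64, 5.48 and 6.55 in the 14 d PI arrays, against 3.94, 3.91 and 3.92 in the 14 d control arrays. The 3 control arrays were nearly equal, and the difference was 1.92 ± 0.24 (adjusted p = 0.000113), while a second, dimmer probe set was not called at 0.17 ± 0.11 (adjusted p = 0.716). Casq2, the calsequestrin of slow and cardiac muscle, differed by 1.79 ± 0.16 (adjusted p = 3.95e-06), slow troponin T, Tnnt1, by 1.65 ± 0.29 (adjusted p = 0.00245) and the slow regulatory light chain Myl2 by 1.57 ± 0.29 (adjusted p = 0.00326). Of the fast myosins, Myh2 of type 2A fibers was 12.48, 12.57, 12.26, 12.52 and 12.004 in the 14 d PI arrays, against 10.93, 10.85 and 10.79 in the 14 d control arrays, a difference of 1.51 ± 0.29 (adjusted p = 0.00548). Myh1 and Myh4, of type 2X and 2B fibers, were not called, at 0.00 ± 0.25 and -0.58 ± 0.31 (adjusted p = 0.998 and 0.487). Neither were the abundant muscle proteins Acta1 (0.05 ± 0.09) and Mb (-0.03 ± 0.17), and these and the fast myosins are named after their values were seen. Myoz2 (1.38) and the giant filament protein nebulin, Neb (1.10), likewise named, were called. Myoz2 lost its call without control replicate 3 (adjusted p = 0.0636). Neb lost its call without PI replicates 1, 4 or 5 or control replicates 1, 2 or 3 (adjusted p = 0.076 to 0.244).

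**Figure D3:**
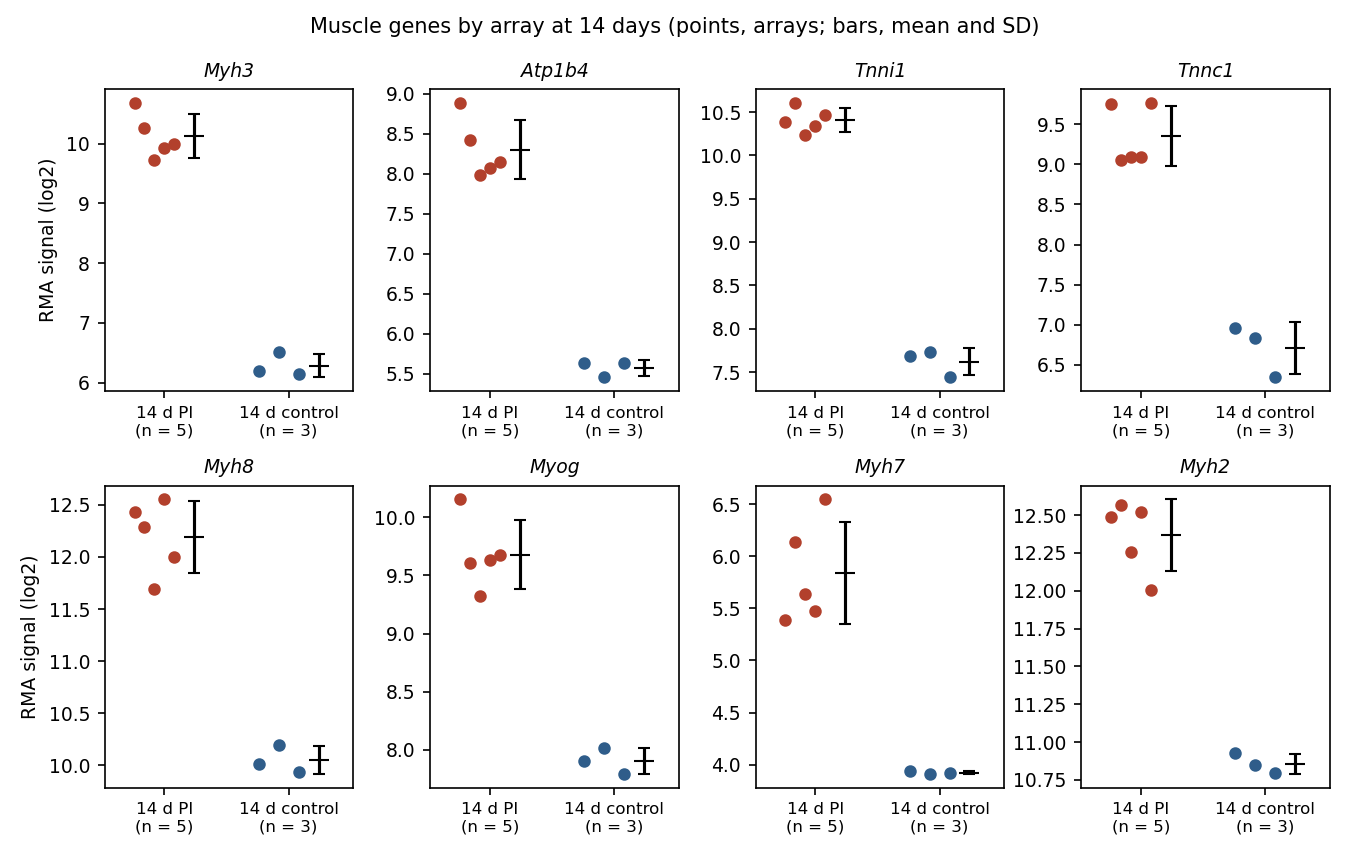
Muscle genes in the 5 arrays of 14 d PI (left, red) and the 3 of 14 d control (right, blue), as log2 RMA signal. Points are arrays and bars the mean with SD, and each panel has its own axis, which does not start at 0. All 8 genes were higher in 14 d PI, with the largest gap for Myh3 (9.73 and above in 14 d PI, against 6.15 to 6.51 in 14 d control).

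Ckm, Acta1 and Mb read between 13.97 and 14.46 in all 8 arrays, close to the top of the scale, where a rise may not show. By array, the median deviation of the 41 fiber genes from the control mean ran from -0.14 to 0.12 in 14 d PI and from -0.06 to 0.08 in 14 d control arrays. Of 18 genes that respond to denervation or belong to the acetylcholine receptor, 2 were higher, Myog and Ankrd1, both also in the regeneration list (median 0.08). Myogenic factors such as Myod1 and myogenin bind E-boxes, of which CAGCTG is one form. These letters stood in the 250 bases before the start of 3 of the 13 called genes of the fiber and regeneration lists with a promoter in RefSeq (GRCr8) and of 17 of the 45 that were not called, against 12% of all promoters. They were chosen after the values were seen.

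The cilia list held the most calls of any list. Of 56 genes of cilia and axonemes, 31 were higher in 14 d PI mucosa and none lower, 55 had a difference above 0, and in 50 every PI array lay above every control array, against 7.95% of all genes. The list median was 0.92, and by array the median deviation from the control mean was 0.93, 0.78, 0.74, 1.19 and 1.16 in 14 d PI, against -0.06, 0.08 and -0.02 in 14 d control. The 31 calls fell into several parts of the axoneme. They were genes of dynein arms and their assembly (Dnah1, Dnah2, Dnah7, Dnai1, Dnali1, Dynlrb2, Dnaaf1, Zmynd10, Odad4), tektins (Tekt1 to Tekt4), radial spokes and the nexin-dynein complex (Rsph1, Ropn1l, Lrrc23, Drc1, Drc3, Ccdc65, Ccdc113), and other axonemal and ciliary proteins (Cfap45, Cfap100, Cfap126, Cfap161, Cfap299, Ak7, Armc3, Iqca1, Meig1, Mns1, Ubxn11). The number of calls changed more than the median when an array was left out. Without 14 d control replicates 1, 2 and 3 it was 10, 12 and 6, and without 14 d PI replicate 5 it was 16. The median stayed between 0.86 and 0.98 without any of the 8 arrays.

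Ciliated cells switch on axoneme genes through RFX factors and Foxj1, and RFX factors bind the X-box, a pair of half-sites of which GTTGCC is one form. The 6 letters GTTGCC, on either strand, stood in the 250 bases before the start of 8 of the 27 called cilia genes with a promoter in RefSeq (GRCr8) and of 6 of the 21 that were not called, against 9.89% of 33469 promoters. The motif was chosen after the values were seen, and a match describes the letters only. The 80 bases around it are shown for 4 of these genes, to show where it lies before genes that rose together, with the motif in capitals.
Tekt1, chr10:57479122-57479201, minus strand: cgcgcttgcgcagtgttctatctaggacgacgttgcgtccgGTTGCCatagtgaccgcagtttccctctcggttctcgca
Dnah2, chr10:54766029-54766108, minus strand: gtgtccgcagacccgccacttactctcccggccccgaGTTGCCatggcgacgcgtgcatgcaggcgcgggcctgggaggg
Lrrc23, chr4:159277765-159277844, minus strand: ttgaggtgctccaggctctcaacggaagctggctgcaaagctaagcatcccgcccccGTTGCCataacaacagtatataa
Cfap161, chr1:147177836-147177915, minus strand: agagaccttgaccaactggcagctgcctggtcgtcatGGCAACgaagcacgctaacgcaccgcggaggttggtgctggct
Each is written in the direction of its gene, and in Cfap161 the motif stands on the other strand, as GGCAAC.

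Tekt1, a tektin of the doublet microtubules, read 10.14, 9.98, 9.98, 10.21 and 10.54 in the 14 d PI arrays, against 8.70, 8.91 and 8.68 in the 14 d control arrays. Dnah1, an inner arm dynein heavy chain, read 9.40, 9.57, 9.34, 9.71 and 9.88 in the 14 d PI arrays, against 7.91, 8.25 and 8.14 in the 14 d control arrays. Both were separate between the groups, by 1.40 ± 0.28 (adjusted p = 0.00647) and 1.48 ± 0.27 (adjusted p = 0.00322). Dnah2, another inner arm heavy chain, read 7.68, 7.92, 7.67, 8.27 and 8.03 in the 14 d PI arrays, against 6.46, 6.55 and 6.75 in the 14 d control arrays, a difference of 1.33 ± 0.27 (adjusted p = 0.00799). Lrrc23, a radial spoke protein, differed by 1.40 ± 0.28 (adjusted p = 0.00684) and the dynein assembly factor Dnaaf1 by 1.21 ± 0.23 (adjusted p = 0.00526). These 5 calls were kept without any of the 8 arrays. Foxj1, the regulator of motile cilia and named after its values were seen, was 9.66 ± 0.38 in 14 d PI and 8.83 ± 0.09 in 14 d control mucosa and was not called (0.84 ± 0.25, adjusted p = 0.07).

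Some of the 15 largest rises were not counted in the cilia and muscle lists. Cimap3, named as a ciliary microtubule associated protein, differed by 1.77 ± 0.30 (adjusted p = 0.00175). The cilia list holds this gene under its older symbol Pifo and took it as not measured, so the counts of that list leave it out. The cadherin relative Cdhr4 differed by 1.72 ± 0.31 (adjusted p = 0.00301). Riiad1 (1.67 ± 0.34, adjusted p = 0.00872) and C16h10orf53 (1.69 ± 0.32, adjusted p = 0.00377) were called too. Riiad1 lost its call without control replicate 3 (adjusted p = 0.0791). C16h10orf53 lost its call without control replicate 3 (adjusted p = 0.0512). The other epithelial lists held 1 call each. Of 52 genes of secretory and surface airway epithelium and glands only Cdhr4 was called (median 0.07), of 46 squamous genes only Fgfbp1 (median 0.01), and of 25 barrier genes only the claudin Cldn11 (median -0.01), which was 7.27, 7.71, 7.75, 8.22 and 7.55 in the 14 d PI arrays, against 6.39, 6.26 and 6.27 in the 14 d control arrays, a difference of 1.39 ± 0.26 (adjusted p = 0.00354). A dimmer probe set of Cldn11 gave 0.32 ± 0.11 (adjusted p = 0.18). The squamous genes Krtdap and Sprr3, named after their values were seen, had large differences that were not called, 2.97 ± 1.14 and 2.52 ± 1.04 (adjusted p = 0.208 and 0.26).

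The list of circadian Per, Rev-erb and PAR-bZIP genes was lower. Of its 12 measured members, 8 were called lower and none higher, none had a difference above 0, and the median was -0.77. In 9 of the 12 every PI array lay below every control array, against 6.08% of all genes. By array, the median deviation from the control mean was -0.87, -0.88, -0.96, -0.64 and -0.74 in 14 d PI, against -0.09, -0.01 and 0.11 in 14 d control. The hour of harvest is not given in the sources used here, so its part in these differences cannot be told apart from that of injury. The E-box CACGTG, the letters that Clock, Npas2 and Bmal1 bind in such genes, stood in the 250 bases before the start of 3 of the 8 called genes and of none of the 3 others with a promoter in RefSeq, against 5.59% of all promoters. It too was chosen after the values were seen, and the windows are shown with it in capitals, to place it in the genes that were lower.
Bhlhe41, chr4:180569361-180569440, minus strand: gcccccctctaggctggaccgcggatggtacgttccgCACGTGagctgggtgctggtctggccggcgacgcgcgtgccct
Bhlhe40, chr4:143174200-143174279, plus strand: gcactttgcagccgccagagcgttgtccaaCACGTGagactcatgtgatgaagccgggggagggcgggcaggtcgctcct
Tef, chr7:115206592-115206671, plus strand: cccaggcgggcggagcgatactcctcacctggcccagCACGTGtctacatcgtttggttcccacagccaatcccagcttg

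Bhlhe41, the repressor Dec2, read 9.02, 9.34, 9.47, 9.50 and 9.02 in the 14 d PI arrays, against 10.44, 10.50 and 10.62 in the 14 d control arrays. The groups were separate, and the difference was -1.25 ± 0.21 (adjusted p = 0.0016). Nr1d1, the nuclear receptor Rev-erb alpha, read 8.03, 8.88, 8.71, 9.49 and 8.35 in the 14 d PI arrays, against 10.26, 10.48 and 10.40 in the 14 d control arrays, a difference of -1.69 ± 0.33 (adjusted p = 0.00641). Per2 read 8.74, 8.66, 8.42, 8.75 and 8.82 in the 14 d PI arrays, against 9.45, 9.56 and 9.55 in the 14 d control arrays. It differed by -0.84 ± 0.15 (adjusted p = 0.00293), but a second probe set at 8.02 in 14 d PI and 8.06 in 14 d control mucosa gave -0.04 ± 0.11 (adjusted p = 0.977). Per3 differed by -0.76 ± 0.15 (adjusted p = 0.00694), with a dimmer probe set at -0.21 ± 0.08 (adjusted p = 0.269). Dbp, a PAR-bZIP factor, had the largest difference, -1.78 ± 0.43 (adjusted p = 0.0252), with values of 8.48, 8.25, 8.20, 8.99 and 8.17 in the 14 d PI arrays, against 9.89, 10.20 and 10.51 in the 14 d control arrays. Dbp lost its call without PI replicates 2, 3 or 5 or control replicates 1, 2 or 3 (adjusted p = 0.0502 to 0.147). Nr1d2, Rev-erb beta (-1.09 ± 0.29, adjusted p = 0.0391), and Bhlhe40, Dec1 (-0.66 ± 0.15, adjusted p = 0.0162), were lower as well. Nr1d2 lost its call without each of the 8 arrays in turn (adjusted p = 0.0502 to 0.243). Bhlhe40 lost its call without control replicates 1 or 3 (adjusted p = 0.0736 to 0.111). Tef, named after its values were seen, differed by -0.58 ± 0.16 (adjusted p = 0.0438). Tef lost its call without PI replicates 1, 2, 4 or 5 or control replicates 1, 2 or 3 (adjusted p = 0.0555 to 0.233). Of 8 circadian activators and partners, Npas2 was higher (0.61 ± 0.17, adjusted p = 0.0495). Npas2 lost its call without each of the 8 arrays in turn (adjusted p = 0.0624 to 0.209). Bmal1, also named after its values were seen, differed by 0.59 ± 0.18 (adjusted p = 0.0766) and Clock by 0.09 ± 0.14 (adjusted p = 0.925).

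**Figure D4:**
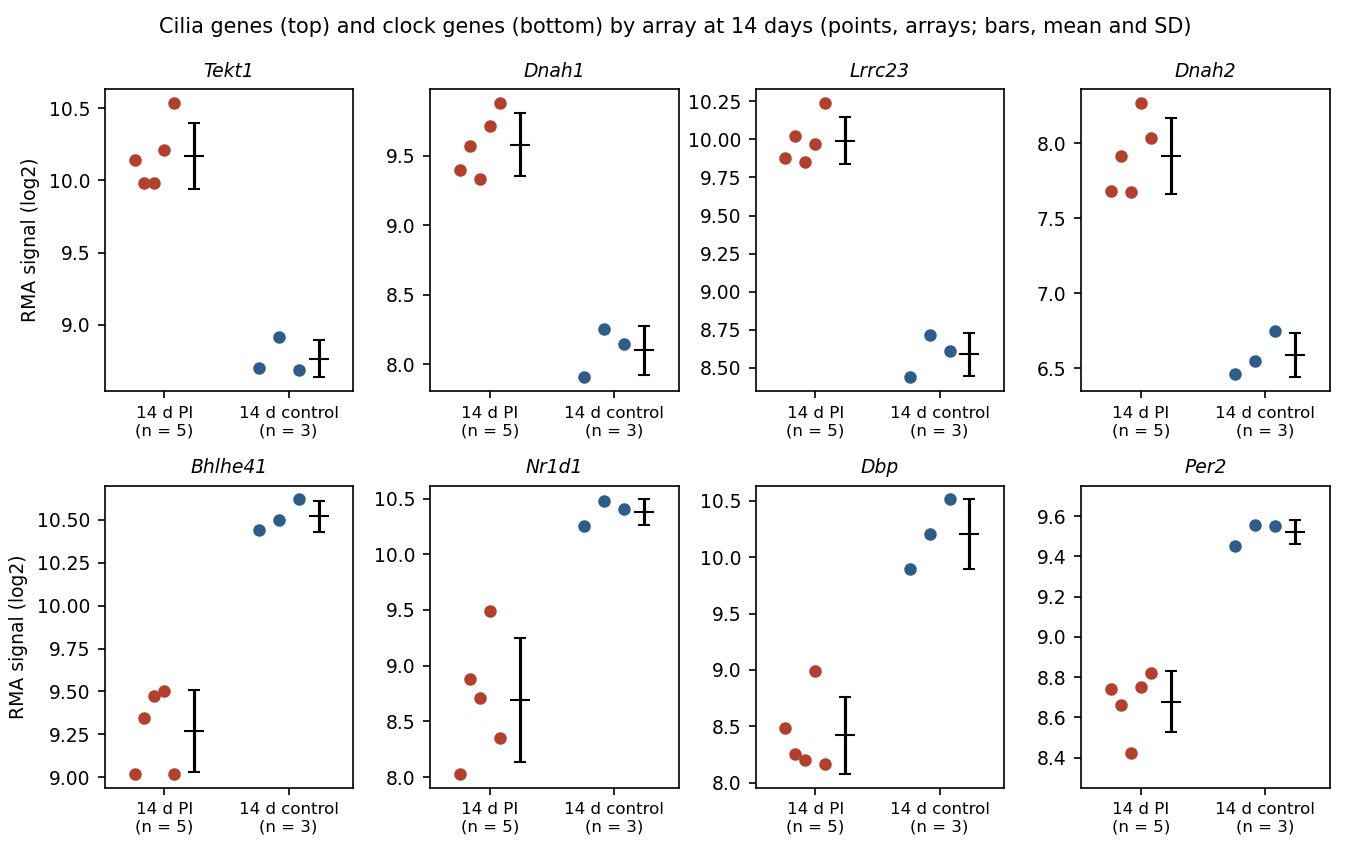
Cilia genes (top row) and circadian genes (bottom row) in the 5 arrays of 14 d PI (left, red) and the 3 of 14 d control (right, blue), as log2 RMA signal. Points are arrays and bars the mean with SD, and each panel has its own axis, which does not start at 0. The 4 cilia genes were higher and the 4 circadian genes lower in 14 d PI, with no overlap in any panel.

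Vessel genes changed in both directions, 6 of 36 higher and 3 lower (median 0.12). Aplnr, the apelin receptor of venous and sprouting endothelium, read 7.88, 7.91, 7.81, 8.41 and 7.69 in the 14 d PI arrays, against 6.70, 7.02 and 6.82 in the 14 d control arrays, a difference of 1.10 ± 0.15 (adjusted p = 0.00016). Prox1, the regulator of lymphatic endothelium, read 7.91, 8.11, 8.14, 8.51 and 8.14 in the 14 d PI arrays, against 7.33, 7.25 and 6.76 in the 14 d control arrays, a difference of 1.05 ± 0.15 (adjusted p = 0.000379), and Angpt2, angiopoietin 2, differed by 1.01 ± 0.17 (adjusted p = 0.0016). Second, dimmer probe sets of Aplnr and Prox1 were not called, at 0.16 ± 0.11 and -0.03 ± 0.11. Prox1 is also expressed in slow muscle fibers, some of whose genes rose in the same arrays, and the part of either source was not tested. Pecam1, a junction protein of all endothelium, was called at 0.68, Sox18 at 0.67 and Egfl7 at 0.45, all named after their values were seen. Sox18 lost its call without control replicates 1 or 3 (adjusted p = 0.0672 to 0.0757). Egfl7 lost its call without PI replicates 1, 3, 4 or 5 or control replicates 1, 2 or 3 (adjusted p = 0.0525 to 0.142). The members that were lower were secreted factors. Pgf, placental growth factor, read 6.66, 6.60, 6.83, 7.003 and 6.73 in the 14 d PI arrays, against 7.75, 7.89 and 7.75 in the 14 d control arrays. Its difference was -1.03 ± 0.12 (adjusted p = 5.33e-05), that of endothelin 1, Edn1, -0.91 ± 0.15 (adjusted p = 0.00161) and that of Esm1, endocan, -1.06. Tmem100, a BMP-induced endothelial gene that is in no list, was among the 15 largest falls, at -1.21 ± 0.17 (adjusted p = 0.000341), while a dimmer probe set gave -0.52 ± 0.14 (adjusted p = 0.0585).

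Most calls among immune genes were lower, against 0.957% of all genes called lower. Of 25 macrophage genes only Cd5l was called (median -0.28), at -0.87 ± 0.20 (adjusted p = 0.0176), with values of 4.78, 4.79, 4.85, 4.88 and 4.68 in the 14 d PI arrays, against 5.70, 5.70 and 5.59 in the 14 d control arrays. Cd5l lost its call without control replicates 1, 2 or 3 (adjusted p = 0.064 to 0.0831). Its second probe set gave -0.04 ± 0.10. In 8 of the 25 macrophage genes every PI array lay below every control array and in 1 above, against 6.08% and 7.95% of all genes. With the 14-day arrays alone 6 of the 25 were called, with pooled controls 7 and with the filter on dim genes none. Csf1r, the macrophage growth factor receptor, differed by -0.54 ± 0.17 (adjusted p = 0.0896; named after its values were seen), while its ligand Csf1 was called and differed by -0.50 ± 0.13 (adjusted p = 0.0412). Csf1 lost its call without PI replicates 1, 2, 4 or 5 or control replicates 1, 2 or 3 (adjusted p = 0.0604 to 0.15). Another probe set of Csf1 was called at -0.42 ± 0.10 (adjusted p = 0.0293). Others were not, at -0.19 ± 0.10 and -0.17 ± 0.10 (adjusted p = 0.543 and 0.659). Csf1 was the only call among 28 acute inflammatory genes (median -0.03), and none of 8 neutrophil genes was called (median 0.05). S100a9, the calprotectin subunit of neutrophils, spread over 7.70, 8.17, 8.42, 6.99 and 8.03 in the 14 d PI arrays, against 6.88, 7.65 and 6.67 in the 14 d control arrays, and these groups overlapped (0.79 ± 0.79, adjusted p = 0.823). Itgb2, the common beta chain of leukocyte integrins, was lower, differing by -0.94 ± 0.25 (adjusted p = 0.0409), the only call among 21 integrins (median -0.03). Itgb2 lost its call without PI replicates 1, 2, 4 or 5 or control replicates 1, 2 or 3 (adjusted p = 0.0679 to 0.158). Of 31 chemokines, the eotaxin Ccl24 (-1.10 ± 0.29, adjusted p = 0.0408) and Cxcl12 (-0.56 ± 0.12, adjusted p = 0.0109) were lower (median 0.01). Ccl24 lost its call without PI replicates 2, 4 or 5 or control replicates 1, 2 or 3 (adjusted p = 0.0777 to 0.182). Cxcl12 lost its call without control replicates 1, 2 or 3 (adjusted p = 0.0533 to 0.056).

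Of 29 genes of T and natural killer cells, 2 were lower (median 0.09). Cd69, an early activation marker of lymphocytes and of other leukocytes, read 7.46, 7.40, 7.83, 7.99 and 7.94 in the 14 d PI arrays, against 9.42, 9.09 and 8.88 in the 14 d control arrays, a difference of -1.41 ± 0.20 (adjusted p = 0.00033). Cd4 differed by -0.88 ± 0.23 (adjusted p = 0.044) and lost its call without each of the 8 arrays in turn (adjusted p = 0.0533 to 0.151). The T cell receptor component Cd3e was 7.59 ± 0.29 in 14 d PI and 7.51 ± 0.21 in 14 d control mucosa and was not called (adjusted p = 0.969). Of 15 mast cell genes, 2 were lower (median -0.44). They were Slc18a2, the vesicular monoamine transporter (-0.78 ± 0.12, adjusted p = 0.000689), and Ms4a2, the beta chain of the IgE receptor (-1.53 ± 0.39, adjusted p = 0.0347). Ms4a2 read 7.02, 6.14, 6.71, 7.37 and 6.32 in the 14 d PI arrays, against 8.81, 7.75 and 8.16 in the 14 d control arrays, a wide spread in both groups. Ms4a2 lost its call without PI replicates 2, 3 or 5 or control replicates 1 or 3 (adjusted p = 0.0551 to 0.21). Cpa3, the mast cell carboxypeptidase, was 9.59 ± 0.69 in 14 d PI and 10.73 ± 0.70 in 14 d control mucosa and was not called (adjusted p = 0.224). The tryptase Tpsab1 went the other way, at 7.30 ± 0.38 in 14 d PI and 7.05 ± 0.48 in 14 d control mucosa, also without a call (adjusted p = 0.767). Of the 15 mast cell genes, 3 had a difference above 0. Of 12 B and plasma cell genes, Jchain, the joining chain of secreted IgA and IgM, was the only call (median 0.12). It read 10.79, 10.53, 11.67, 11.27 and 11.51 in the 14 d PI arrays, against 9.49, 9.53 and 8.80 in the 14 d control arrays, a difference of 1.88 ± 0.43 (adjusted p = 0.0159). Jchain lost its call without control replicates 1 or 3 (adjusted p = 0.0512 to 0.126). The B cell markers Ms4a1 and Cd79b were not called (0.05 and -0.07).

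Complement genes changed in both directions. Of 24, 2 were higher and 3 lower (median -0.25). In 9 of the 24 every PI array lay below every control array and in 3 above, against 6.08% and 7.95% of all genes. Cfi, factor I, and Cd46, its cofactor, which together inactivate C3b in humans, differed by 0.82 ± 0.17 and 0.76 ± 0.20 (adjusted p = 0.0075 and 0.0446). Clu, clusterin, an inhibitor of the terminal complex, read 12.66, 12.03, 12.68, 12.43 and 12.34 in the 14 d PI arrays, against 13.46, 13.34 and 13.53 in the 14 d control arrays, a difference of -1.02 ± 0.15 (adjusted p = 0.000459). Serping1, above, and Cd55, which accelerates convertase decay (-0.58 ± 0.15, adjusted p = 0.0349), were the other members that were lower. All 5 are regulators. Cfi lost its call without control replicate 3 (adjusted p = 0.0518). Cd46 lost its call without PI replicates 1, 3, 4 or 5 or control replicates 1, 2 or 3 (adjusted p = 0.0625 to 0.161). Cd55 lost its call without PI replicates 1, 2, 4 or 5 or control replicates 1, 2 or 3 (adjusted p = 0.0512 to 0.212). Of 18 acute-phase genes, 2 were lower (median 0.00), Serpina3n and ceruloplasmin, Cp (-0.70 ± 0.17, adjusted p = 0.0264). Cp lost its call without PI replicates 2 or 5 or control replicates 1, 2 or 3 (adjusted p = 0.0634 to 0.126). No call was made among 15 genes of MHC class II presentation (median 0.07; Cd74, the invariant chain, 0.28 ± 0.14) or 29 interferon response genes. All 29 interferon genes had differences above 0 with a median of 0.37, but by array the median deviation ran from 0.00 to 0.74 in 14 d PI and from -0.21 to 0.29 in 14 d control arrays, which overlap. Without 14 d PI replicate 3, the array at 0.00, 4 of the 29 were called, and without replicate 4, 2.

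Of 31 cell division genes, Aurkb, the kinase of chromosome segregation, was the only call (1.07 ± 0.26, adjusted p = 0.0227), and the median was 0.38. Aurkb lost its call without PI replicate 5 or control replicates 1, 2 or 3 (adjusted p = 0.0599 to 0.105). Without 14 d PI replicate 4, 6 of the 31 were called, and with array weights 18. By array, the median deviation from the control mean was -0.01 in that replicate and 0.30 to 0.58 in the other 4 PI arrays, against -0.20 to 0.16 in the 14 d control arrays. At 3 days 28 of the 31 had been higher (median 1.80), and for 23 the effect was smaller at 14 days by the test of the difference. None of 26 replication genes was called (median 0.18, against 0.88 at 3 days, when 24 were higher). Top2a (0.56 ± 0.16, adjusted p = 0.054) and Mki67 (0.56 ± 0.18, adjusted p = 0.103), which mark cycling cells and are named after their values were seen, were not called at 14 days.

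Neurotrophic and metabolic genes were among those that were lower. Nrtn, neurturin, read 7.12, 6.95, 7.10, 7.63 and 6.94 in the 14 d PI arrays, against 8.12, 8.13 and 8.09 in the 14 d control arrays, a difference of -0.96 ± 0.18 (adjusted p = 0.00372), and Gfra1, the coreceptor of the related factor GDNF, differed by -0.68 ± 0.14 (adjusted p = 0.00872), 2 of 17 genes of these ligands and receptors (median -0.15). Of 44 genes of xenobiotic, aldehyde and retinoid metabolism, 3 were lower and 1 higher (median -0.10). In 13 of the 44 every PI array lay below every control array and in 2 above, against 6.08% and 7.95% of all genes. With the 14-day arrays alone 11 of the 44 were called. Fmo1, a flavin monooxygenase, differed by -0.81 ± 0.13 (adjusted p = 0.00116) and aldehyde oxidase, Aox1, by -0.75 ± 0.15 (adjusted p = 0.00745). Por, which donates electrons to cytochromes P450 (-0.55 ± 0.14, adjusted p = 0.0387), was lower and Aldh3b1 (0.86 ± 0.18, adjusted p = 0.0101) higher. Por lost its call without PI replicates 1, 2, 3 or 5 or control replicates 1 or 2 (adjusted p = 0.0659 to 0.192). Aldh3b1 lost its call without control replicates 1 or 3 (adjusted p = 0.0514 to 0.0565). Other genes of the 15 largest falls were in no list. The lipocalin Obp3 differed by -1.51 ± 0.30 (adjusted p = 0.00684), the small GTPase Rasd2 by -1.44 ± 0.27 (adjusted p = 0.00377) and Sphkap by -1.29 ± 0.18 (adjusted p = 0.000197). Dimmer probe sets of Rasd2 and Sphkap gave -0.34 ± 0.11 and -0.21 ± 0.12 (adjusted p = 0.171 and 0.595). The opioid precursor Penk differed by -1.28 ± 0.31 (adjusted p = 0.023) and cysteine dioxygenase, Cdo1, by -1.13 ± 0.17 (adjusted p = 0.000665). Penk lost its call without PI replicates 2 or 5 or control replicates 1, 2 or 3 (adjusted p = 0.0591 to 0.107). Rassf4 was also among the largest falls (-1.10 ± 0.24, adjusted p = 0.0135). Rassf4 lost its call without control replicates 2 or 3 (adjusted p = 0.0512 to 0.107). Among the largest rises, the kallikrein Klk1 read 6.41, 6.31, 5.49, 5.83 and 6.34 in the 14 d PI arrays, against 4.24, 4.20 and 4.75 in the 14 d control arrays, a difference of 1.68 ± 0.25 (adjusted p = 0.000491). Cmahp read 8.32, 8.84, 9.05, 7.79 and 9.51 in the 14 d PI arrays, against 5.71, 6.06 and 6.97 in the 14 d control arrays, a difference of 2.46 ± 0.45 (adjusted p = 0.00344).

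The remaining lists held 1 call or none. Gnat3, gustducin, the G protein of taste cells, was the only call of 10 chemosensory genes (median 0.23) and read 8.92, 9.04, 9.32, 9.04 and 9.39 in the 14 d PI arrays, against 8.14, 7.88 and 7.56 in the 14 d control arrays, a difference of 1.28 ± 0.22 (adjusted p = 0.00194). The cholesterol enzyme Sqle was the only call of 24 sterol and fatty acid genes (median 0.16), at 0.66 ± 0.15 (adjusted p = 0.016). Herpud1, of protein degradation at the endoplasmic reticulum, was the only call of 27 stress response genes (median -0.11), at -0.58 ± 0.15 (adjusted p = 0.0298). The adipogenic receptor Pparg was the only call of 25 fat genes (median -0.02), at -0.40 ± 0.11 (adjusted p = 0.0451). Cox6b2 was the only call of 86 respiratory chain genes (median 0.12), at 1.07 ± 0.26 (adjusted p = 0.0242). Sqle lost its call without PI replicate 5 or control replicates 1, 2 or 3 (adjusted p = 0.0518 to 0.0908). Herpud1 lost its call without PI replicates 1, 2, 3 or 5 or control replicates 1, 2 or 3 (adjusted p = 0.0556 to 0.18). Pparg lost its call without PI replicates 1, 2, 4 or 5 or control replicates 1 or 2 (adjusted p = 0.0522 to 0.273). Cox6b2 lost its call without PI replicate 4 or control replicates 1 or 3 (adjusted p = 0.0532 to 0.199). No call was made in the lists of cartilage (17 genes, median -0.44; Mia 0.46 ± 0.34), Schwann cells (22, -0.06; Pmp22 -0.14 ± 0.13), thyroid (9, -0.09; Duox2 -0.19 ± 0.19), red blood cells (7, 0.00; Hbb 0.33 ± 0.21), immediate early genes (33, -0.14; Dusp1 -0.40 ± 0.19) or ribosomal proteins (44, 0.10; Rps6 0.04 ± 0.07). For Ankrd1 (1.15), Jchain (1.29), Clu (-0.79), Cd55 (-0.67), Por (-0.64), Gfra1 (-0.50), Cxcl12 (-0.49 and -1.05) and Nr1d2 (-0.96 and -1.21), the other probe sets differed in the direction of the call without being called.

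Of the 436 genes called at 14 days, 281 were also called at 3 days in the same direction and 14 in the opposite one, against 3771 genes called at 3 days in all (26.5%). The other 141 were not called at 3 days, 108 higher and 33 lower at 14 days, and in 36 of these the injury effects at 14 and 3 days differed by their own test. That test, the 14-day minus the 3-day effect, passed in 1123 genes (7.9% of all), 359 of them above 0 (2.53%) and 764 below (5.37%), and in 107 of the genes called at 14 days, 50 of which had the larger effect at 14 days.

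Serpina3n and Bhlhe40 were higher at 3 days and lower at 14 days, and the other 12 genes of opposite direction were lower at 3 and higher at 14 days. Serpina3n differed by 0.94 ± 0.30 at 3 days and -1.75 ± 0.30 at 14 days, a difference between effects of -2.69 ± 0.42 (adjusted p = 0.000295). Myh2 and Myl2 were the muscle genes of this set, at -1.46 ± 0.29 and -0.88 ± 0.29 at 3 days and 1.51 ± 0.29 and 1.57 ± 0.29 at 14 days, whereas Myh3 was higher at both (difference between effects -2.38 ± 0.31, adjusted p = 3.91e-05). Col4a5 (-0.51 ± 0.12 at 3 days, 0.70 ± 0.12 at 14 days) and Adamts15 (-0.44 ± 0.13 and 0.83 ± 0.13) were the matrix genes, while the collagen IV chain Col4a2 was higher at 3 days too (1.21 ± 0.17). The others were Gnat3, Npas2 and Cmahp, above, and 5 genes with other roles. The FGF carrier Fgfbp1 differed by 1.11 ± 0.25 at 14 days (adjusted p = 0.0172) and Erich3 by 1.06 ± 0.25 (adjusted p = 0.019). Igsf1 differed by 0.72 ± 0.12 (adjusted p = 0.0016), the phosphatase Ptpn18 by 0.55 ± 0.10 (adjusted p = 0.00354) and Irag2 by 0.48 ± 0.12 (adjusted p = 0.0357). A second probe set of Igsf1 gave -0.04 ± 0.09 and one of Myl2 -0.04 ± 0.09 at 14 days, neither called. Fgfbp1 lost its call without PI replicate 5 or control replicates 1, 2 or 3 (adjusted p = 0.051 to 0.0872). Erich3 lost its call without PI replicate 5 or control replicates 1, 2 or 3 (adjusted p = 0.0557 to 0.107). Irag2 lost its call without PI replicates 1, 2, 4 or 5 or control replicates 1, 2 or 3 (adjusted p = 0.0619 to 0.142). The direction of these 14 genes follows from how they were chosen.

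**Figure D5:**
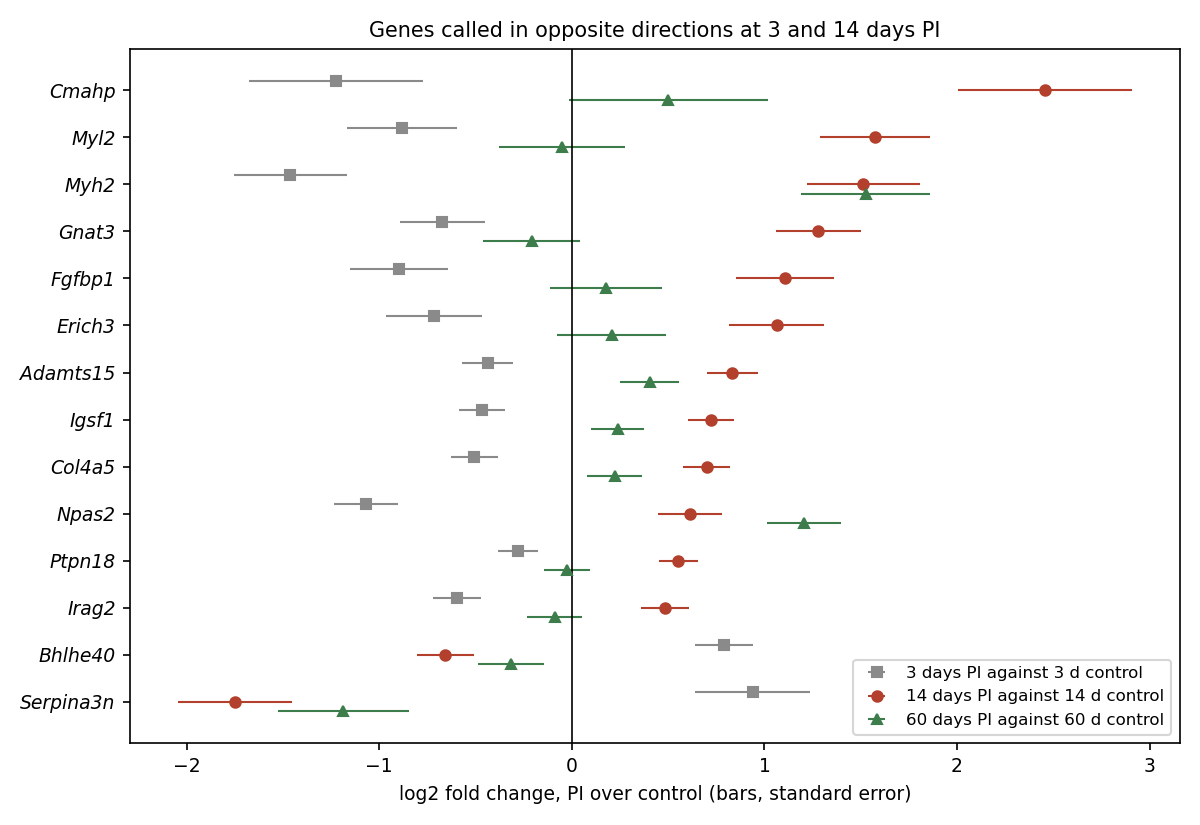
Injury effects (PI over control, log2, with standard errors) at 3, 14 and 60 days for the 14 genes called in opposite directions at 3 and 14 days. Effects at 3 days are squares, at 14 days circles and at 60 days triangles, 12 genes lie right of 0 at 14 days and 2 left of it, and the 60-day effect of Myh2 (1.53) is close to that at 14 days (1.51).

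Cilia genes were already higher at 3 days, when 31 of the 56 were called (median 0.74), and at 60 days their median was -0.02 with none called. That comparison rests on 2 control arrays that stood far apart in these genes, with Rsph1 at 7.85 and 9.41 and Dnai1 at 7.78 and 9.12. The gap between these 2 controls had a median of 1.14 over the 56 genes, against 0.13 over all genes, and in 44 of the 56 it was larger than the 14-day difference. Pools of control mucosa can thus differ in cilia genes by as much as injured and control mucosa did at 14 days, and the 3 control arrays of 14 days did not. For 1 of the 56 genes the effect at 14 days was below that at 3 days by the test of the difference, and for none above. Among matrix genes, Eln differed by -0.25 ± 0.19 at 3 days and 1.11 ± 0.19 at 14 days, a difference between effects of 1.36 ± 0.27 (adjusted p = 0.00256). Prox1 (1.06 ± 0.21, adjusted p = 0.00318), Jchain (2.96 ± 0.60, adjusted p = 0.00345) and Dlk1 (1.10 ± 0.16, adjusted p = 0.000176) likewise had larger effects at 14 days. Clusterin, lower at 14 days, differed by 0.01 ± 0.15 at 3 days, and the difference between effects was -1.02 ± 0.21 (adjusted p = 0.0038).

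Against 60 days the injury effect differed in 11 genes (0.0774%), all with the higher effect at 14 days, and 9 of them were called at 14 days. Of the 436 called genes, 312 had an effect of the same sign at 60 days, when 7 genes were called (0.0492%), 3 of them higher (0.0211%) and 4 lower (0.0281%). The 9 were Myh3, Postn, Col5a1, Pxdn, Col6a2, Dlk1, Cercam, C1qtnf6 and Srpx2. The effect of Myh3 was 1.17 ± 0.25 at 60 days, a difference between effects of 2.66 ± 0.33 (adjusted p = 0.00126). For Postn the difference between effects was 1.36 ± 0.20 (adjusted p = 0.00471) and for Col5a1 1.19 ± 0.19 (adjusted p = 0.00984). It was 1.13 ± 0.21 for Pxdn and 0.96 ± 0.18 for Col6a2 (adjusted p = 0.0389 and 0.0389). At 60 days Postn, Col5a1 and Col6a2 were at -0.08 ± 0.15, -0.12 ± 0.14 and -0.34 ± 0.13. C1qtnf6, a secreted protein of the C1q and TNF-related family, read 7.97, 8.21, 8.35, 8.23 and 8.04 in the 14 d PI arrays, against 6.996, 7.07 and 6.99 in the 14 d control arrays, a difference of 1.14 ± 0.11 at 14 days (adjusted p = 4.47e-06) and -0.06 ± 0.12 at 60 days. The imprinted Notch-like gene Dlk1 differed by 0.82 ± 0.12 at 14 days (adjusted p = 0.00033). Its effect there was above those at 3 days (-0.28 ± 0.12; difference 1.10 ± 0.16, adjusted p = 0.000176) and 60 days (-0.18 ± 0.13; difference 1.00 ± 0.18, adjusted p = 0.0281). Srpx2 and Cercam differed by 0.88 ± 0.11 and 0.64 ± 0.11 at 14 days (adjusted p = 0.000113 and 0.00293). The count of 11 was 3 without 14 d control replicate 3, 5 and 7 without control replicates 2 and 1 and 6 without 14 d PI replicate 5, and the 60-day groups rest on 2 control arrays. The list of circadian Per, Rev-erb and PAR-bZIP genes had a median of -0.72 at 60 days and of -0.77 at 14 days. Of its members, Per2 was called at 60 days too (-1.02 ± 0.17, adjusted p = 0.0218).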

How the data were processed

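Total RNA of microdissected VF mucosa, pooled from 4 rats per sample, was amplified, labelled and hybridized to Affymetrix Rat Genome 230 2.0 arrays. The deposited values are log2 signals, which the authors made from the scanned arrays by RMA (affy package; versions are not given in the sources used here), a step that corrects background, brings all arrays to a common distribution and summarizes the probes of each probe set. Only these values were used, and the steps before them were not varied. Arrays have no read depth, and their number limits the precision.

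Of 31099 probe sets, 57 controls were left out. In the platform annotation, 20826 of the other 31042 had 1 gene symbol, 436 had several and 9831 none. Symbols were updated to RefSeq (GRCr8), 20758 by gene number and 2 by accession, and 66 were kept as given. A gene was represented by its probe set of median mean signal (14217 genes, 4525 of them with several probe sets). Of the named called genes, 54 had another probe set. For 26 of them another was called in the same direction, for 28 no other was called, and none was called in the opposite direction.

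Groups came from the labels. A limma model (version 3.58.1, R 4.3.3) was fitted to the 6 groups of the 23 mucosa arrays with moderated variances. Contrasts were PI minus control at each time and the difference of the 14-day effect from those at 3 and 60 days. Calls required an adjusted p below 0.05 (Benjamini-Hochberg, over all genes). At 60 days the labels and the study's methods differ in the number of arrays per group, and the labels were used. The 13 fibroblast arrays were not analysed here. The fit was tested on simulated data. Python 3.11.15 and matplotlib 3.10.9 drew the figures.

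The gene lists and the rule for named genes were chosen with earlier results of these data known. The rule names the 15 largest rises and 15 largest falls among called genes whose arrays were separate, for each list the 5 called members of smallest adjusted p (or its member of highest signal where none was called), the genes of opposite direction at 3 days and up to 10 that differ from 60 days. Alternatives were the 14-day arrays alone, pooled controls, array weights, other scaling, other choices of probe set, a filter on dim genes, a trended robust prior, the replicate number as a block, each array left out and a lognormal-normal mixture model (posterior probability above 0.95), the kind of model named in the study's methods. The main fit did not treat arrays of the same replicate number as pairs.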

Additional observations from a re-analysis of the deposited data

Results flagged for a closer look

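In 7 of the 138 named genes, 1 of the 5 arrays of 14 d PI stood apart from the other 4, its gap to the nearest being over 0.71 of the group's range. Chance gives about 1 in 20 groups. The array was replicate 4 in Col4a2 (10.85, the next at 10.51), Lmod1 (8.35, the next at 7.46), Nrtn (7.63, the next at 7.12) and Cox6b2 (6.43, the next at 6.09), each time the highest. It was replicate 3 in Col4a5 (12.33, the highest) and replicate 5 in Cxcl12 (10.63) and Sfrp5 (6.79), the lowest in both. Cox6b2 lost its call without replicate 4, and Col4a2, Nrtn and Col4a5 kept theirs without each array.

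In 56 named genes the injury effect at 14 days differed from that at 3 days by the test of the difference, which passed in 7.9% of all genes. The values are the 14-day minus the 3-day effect on the log2 scale. Negative values were those of matrix genes, namely Col1a1 (-1.02), Col5a1 (-0.90), Col5a3 (-2.34), Col6a2 (-0.58), Col6a3 (-0.84), Lox (-1.27), Plod2 (-2.24), Nid2 (-1.73), Pxdn (-0.81), Postn (-0.64), Thbs2 (-1.38), Cthrc1 (-1.25), Aspn (-1.22), Adamts4 (-2.05), Adamts12 (-1.78), Srpx2 (-1.57) and Cercam (-0.58). Among muscle genes they were Myh3 (-2.38), Myog (-1.63), Myod1 (-1.56), Ankrd1 (-2.12), Tnni1 (-1.64), Tnnc1 (-1.96) and Casq2 (-0.96). The others were Sfrp4 (-1.45), Klk1 (-1.91), C1qtnf6 (-0.82), Serpina3n (-2.69), Bhlhe40 (-1.45), Clu (-1.02), Fmo1 (-0.62) and Slc18a2 (-0.57). The last 5 of these were lower at 14 days, so their negative values mark a stronger fall or a change of direction.

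Positive values were those of Myh2 (2.98) and Myl2 (2.46) among muscle genes and of Eln (1.36), Col4a5 (1.21), Adamts15 (1.27) and Adam8 (0.89) among matrix genes. Timp3 (0.78), Cxcl12 (0.68) and Aox1 (0.71) were lower at both times and less so at 14 days. Among epithelial and chemosensory genes the values were 2.00 for Fgfbp1, 1.79 for Cdhr4 and 1.95 for Gnat3. The rest were Cmahp (3.68), C16h10orf53 (2.00), Erich3 (1.78), Jchain (2.96), Npas2 (1.68), Lgr5 (1.25), Igsf1 (1.19), Dlk1 (1.10), Irag2 (1.08), Prox1 (1.06), Ptpn18 (0.83) and Wnt2 (0.43).

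Against 60 days the effect at 14 days was higher in 9 named genes. The differences were 2.66 for Myh3, 1.36 for Postn, 1.21 for C1qtnf6, 1.19 for Col5a1, 1.13 for Pxdn, 1.01 for Cercam, 1.00 for Dlk1, 0.96 for Col6a2 and 0.92 for Srpx2.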

How the results depend on the processing

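None of the 127 named called genes changed direction under any alternative that tested it. Against 436 genes called at 14 days (300 higher, 136 lower), the 14-day arrays alone gave 910 (579 and 331), controls of the 3 ages pooled 895 (506 and 389), array weights 2093 (1133 and 960) and the lognormal-normal model 823 (531 and 292). All probe sets gave 595, with 209 lower. Leaving out 1 array of the 8 gave 172 to 418 (higher 108 to 276, lower 63 to 163). Alternatives chosen after seeing the data gave 733 (483 and 250) without 60 d PI replicate 4, 541 without 3 d PI replicate 5 and 498 when both of these and 14 d control replicate 3, which deviated alike, were left out. Centring and repeated quantile normalization gave 437 each. The test of the 14-day against the 3-day effect, with 1123 genes (359 above 0, 764 below), gave 5067 with array weights (2126 and 2941), 2042 with all probe sets (838 and 1204), 1836 without 60 d PI replicate 4 (697 and 1139), 2325 without those 3 arrays (899 and 1426) and 796 to 1031 with 1 array left out (219 to 326 and 570 to 711). That against 60 days, with 11 genes, all above 0, gave 65 with array weights (53 and 12 below), 17 with all probe sets (17 above), 17 without 60 d PI replicate 4 (16 and 1), 10 without those 3 arrays (9 and 1) and 3 to 13 with 1 array left out (3 to 13 above, 0 to 1 below). The causes were not tested. The deviations of same-numbered PI and control arrays had r of -0.134, -0.006 and 0.094 across genes. Those of differently numbered arrays ran from -0.159 to 0.179. With only 3 same-numbered pairs, these values cannot tell whether the numbers mark pairs or shared handling. The replicate block used only arrays whose number occurs in both groups of a time point, so 14 d PI replicates 4 and 5 were left out. It gave 446 calls, 282 of them shared with the 436, 1030 for 3 days and 0 for 60 days (0 above). The effect of the block and that of the arrays left out are not separated here. Of 127 named called genes, 29 lost the call under the block, 10 to 44 with 1 array left out, 15 without those 3 arrays, at most 9 under any other setting and 0 with array weights, centring or quantile normalization. The filter on dim genes tested 109 of them, all still called. Of 11 named genes not called, 3 were called with array weights. The lowest weights were those of 14 d PI replicate 4 (0.437) and 14 d control replicate 3 (0.549). Signal over background is not given, so the limit it sets is unknown.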

Other observations

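Some called genes outside the lists belong to groups not described above. They were chosen after their values were seen, so their number says nothing about these groups. Some genes induced by glucocorticoids were lower in 14 d PI mucosa, with Fkbp5, a chaperone of the receptor, at -0.63 ± 0.13 (adjusted p = 0.0107), the transcription factor Klf15 at -0.70 ± 0.17 (adjusted p = 0.0244) and Tsc22d3, also called GILZ, at -0.53 ± 0.14 (adjusted p = 0.0362). Fkbp5 lost its call without control replicates 1 or 3 (adjusted p = 0.0536 to 0.0736). Klf15 lost its call without PI replicates 2 or 5 or control replicates 2 or 3 (adjusted p = 0.0502 to 0.21). Tsc22d3 lost its call without PI replicates 2, 3 or 5 or control replicates 1 or 3 (adjusted p = 0.0815 to 0.2). At 3 days Klf15 and Tsc22d3 were lower too (-1.19 ± 0.17 and -0.83 ± 0.14, adjusted p = 2.4e-05 and 0.000117), and Fkbp5 differed by -0.07 ± 0.13 (adjusted p = 0.771). As for the circadian genes, the part of the hour of harvest cannot be told apart from that of injury. Some genes of nerve were lower too. In the list of Schwann cells and myelin, however, none of 22 genes was called (median -0.06), and 9 had a difference above 0. Lgi4, a Schwann cell factor of myelination, read 7.98, 8.07, 7.98, 8.55 and 7.80 in the 14 d PI arrays, against 9.04, 9.03 and 8.99 in the 14 d control arrays, and the groups were separate by -0.94 ± 0.14 (adjusted p = 0.000485). The neuronal stathmin Stmn2 differed by -0.77 ± 0.14 (adjusted p = 0.00291), neuritin, Nrn1, by -0.74 ± 0.15 (adjusted p = 0.00911) and the sodium channel gene Scn7a by -0.71 ± 0.15 (adjusted p = 0.0101). Nrn1 lost its call without control replicate 3 (adjusted p = 0.0515). Scn7a lost its call without control replicates 1 or 3 (adjusted p = 0.0588 to 0.059).

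The imprinted gene Mest, expressed from the paternal copy, read 8.66, 8.26, 7.99, 8.68 and 8.56 in the 14 d PI arrays, against 6.99, 6.98 and 7.11 in the 14 d control arrays. Its groups were separate by 1.41 ± 0.16 (adjusted p = 4.51e-05), and it was higher at 3 days as well (2.85 ± 0.16). Dlk1 and Cdkn1c, above, are imprinted too. Genes of transport along the cilium and of its base, outside the cilia list, were also higher. Deup1, of the bodies that multiply centrioles in ciliated cells, differed by 1.33 ± 0.30 (adjusted p = 0.0152), the axonemal Spef2 by 1.08 ± 0.27 (adjusted p = 0.0325) and Gas8, of the nexin-dynein complex, by 0.98 ± 0.25 (adjusted p = 0.0334). The intraflagellar transport genes Ift88 and Ift140 differed by 0.59 ± 0.13 and 0.81 ± 0.19 (adjusted p = 0.0101 and 0.0223) and the kinesin gene Kif3a by 0.55 ± 0.12 (adjusted p = 0.0108). Deup1 lost its call without control replicates 1 or 3 (adjusted p = 0.0736 to 0.0881). Spef2 lost its call without PI replicates 3, 4 or 5 or control replicates 1, 2 or 3 (adjusted p = 0.054 to 0.152). Gas8 lost its call without PI replicates 1, 4 or 5 or control replicates 1, 2 or 3 (adjusted p = 0.053 to 0.125). Ift88 lost its call without control replicate 1 (adjusted p = 0.0685). Ift140 lost its call without PI replicate 5 or control replicates 1, 2 or 3 (adjusted p = 0.0632 to 0.0967). Kif3a lost its call without control replicates 2 or 3 (adjusted p = 0.0664 to 0.0831).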
